A study of Arabidopsis thaliana with 24 samples.

Results

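The 200 genes described here encode proteins of the small (40S) and large (60S) subunits of the ribosome in Arabidopsis thaliana. They are all rows of the deposited gene table whose description holds the words 40S ribosomal protein or 60S ribosomal protein, out of 27782 genes listed. The rule uses no measured value, though it was set with earlier results of these data known. The wording leaves out the acidic stalk proteins and any ribosomal protein described in other words. The small subunit reads the messenger RNA, and the large subunit forms the peptide bonds and holds the tunnel through which the new chain leaves. Arabidopsis encodes nearly every ribosomal protein with several paralogous genes, and growing tissue transcribes them strongly and together. Their promoters commonly hold short motifs known as the telo box and site II elements, and the kinase TOR, through S6 kinase, is a known regulator of ribosome synthesis in plants.

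Messenger RNA was sequenced from whole seedlings of accession Col-0 aged 14 days, in 24 libraries that form 8 groups of 3. DNE1 is an RNA endonuclease that associates with the mRNA decapping machinery, and VARICOSE (VCS) is a scaffold of decapping. Batches 1 to 3, from 2018, held wild type (WT), the insertion mutant dne1-1 (Salk132521), here dne1, and OE1 and OE2, a pair of transgenic lines in which the constitutive viral 35S promoter drives a fusion of GFP and DNE1. Batches 4 to 6, from 2019, held WT and the decapping mutant vcs-6. Batches 7 to 9, also from 2019, held WT and one transgenic line, here D153N, in which the 35S promoter drives a GFP fusion of DNE1 carrying the D153N substitution. The 35S promoter is active in most cells, each group is a single line, and no treatment is named for any of them. The replicates are called biological triplicates, with nothing further on how plants were grouped, so each p-value reflects how far these particular libraries spread.

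Of the 200 genes 92 encode 40S and 108 encode 60S proteins. The descriptions of 3 of them name mitochondria (AT3G22300, AT5G47320 and AT2G28815). These were counted as members but kept out of the subunit values, which leaves 90 genes for 40S and 107 for 60S. By protein number the genes fall into 75 families, 32 of 40S and 43 of 60S, of which 70 hold at least 2 genes. In 27 genes over 20% of the 31-base words of the transcript also occur in other transcripts, so their reads may be divided between loci, and 43 overlap an antisense gene, with the strand setting of counting not given. Both kinds of gene have uncertain values.

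The libraries held 36714564 to 70561391 reads in 2018 and 22611653 to 53908600 in 2019. Values below are normalized counts, which are reads divided by a size factor per library, and the factors of the 2 years were derived apart. DNE1 transcript stood at 1462 ± 146 (SD, n = 3) in WT of batches 1 to 3 and at 309 ± 50.1 in dne1, 21228 ± 2138 in OE1 and 19980 ± 2005 in OE2. In batches 7 to 9 it was 819.7 ± 29.6 in WT and 15781 ± 3211 in D153N. VCS transcript did not follow its label, with 5282 ± 600 in WT and 8115 ± 632 in the libraries labelled vcs-6, which are called vcs-6 for short. Photosynthetic leaf cell markers were abundant in every group, as the tissue label implies, and markers of dividing cells, root and seed were detected too.

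In WT seedlings the ribosomal protein genes spanned the whole range from absent to very abundant. Levels were compared between genes within a group, per kilobase of transcript. They cannot be compared between years, whose size factors were derived apart. S25-4 (AT4G39200), a 40S protein, stood highest, at 54591 normalized counts per kilobase in WT of batches 1 to 3, 21868 in batches 4 to 6 and 21322 in batches 7 to 9. L23a-1 (AT2G39460), which lies at the exit of the peptide tunnel, stood at 35550, 17367 and 13948 in the same order. S5-2 (AT3G11940), a 40S head protein known as RPS5A, stood at 35319, 15059 and 15638. L23a-1 and S5-2 had the same mean rank over the 3 WT groups, so their order depends on the group. At the other end AT1G33850 (S15, which shares 32.2% of its words), AT2G39590 (S15a-3) and AT3G51190 (L8-2) had 0 reads in all 6 WT libraries of 2019 and are not listed in 2018.

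Genes were tested where 3 or more libraries reached a normalized count of 10. In each comparison 191 of the 200 genes did, 85 of 40S, 103 of 60S and the 3 with a mitochondrial description. The other 9 were AT1G02830, AT1G33850, AT1G36240, AT2G39590, AT3G48960, AT3G51190, AT5G09490, AT5G43640 and AT5G63070, and the highest value of any of them in any library was 9.90. Changes are given as log2 of the normalized count plus 1, line against its own WT, with the standard error. A gene is called higher or lower where limma gave a Benjamini-Hochberg adjusted p under 0.05 over all genes tested.

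The 4 comparisons with WT within batches 1 to 3 asked what loss or overexpression of DNE1 changes, and in them no ribosomal protein gene was called. In dne1, 0 of 191 passed, against 0.0185% of 21631 genes tested, and the median change was -0.10. In OE1 0 passed, against 0.139% of all genes, with a median of -0.07. In OE2 0 passed, against 0.171%, with a median of 0.04. Both overexpressors jointly also gave 0, against 0.365% of all genes, with a median of -0.01. Batch, which pairs the libraries, was not in these fits. With batch as a block both overexpressors jointly again gave 0, against 2.47% of all genes. edgeR and DESeq2 called 0 members in each of these comparisons as well, where edgeR called 0.0185%, 0.0786%, 0.129% and 0.24% of all genes and DESeq2 0.0324%, 0.962%, 0.795% and 1.56%, in the order given. An unadjusted p under 0.05 was reached by 0, 0, 0 and 2 members, in the same order, where 352, 1488, 1378 and 1864 of all genes reached it. OE1 and OE2 did not differ in any member either, with 0 of 191 called by limma, edgeR or DESeq2, where these called 0.0%, 0.0% and 0.00925% of all genes, and none of the members had an unadjusted p under 0.05, against 152 of all genes.

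The spread in 2018 was wide for these genes. RPS5A (S5-2) stood at 41484, 40698 and 32358 in WT, 30357, 32429.9 and 33461 in dne1, 33987, 35770.0 and 34442 in OE1 and 40671, 37321 and 32628 in OE2, in the order of batches 1, 2 and 3. Each line overlapped WT. S28-1 (AT5G03850), which lies near the mRNA exit of the 40S subunit, varied more, with 1486, 2469 and 1306 in WT, 1814, 1735 and 1278 in dne1, 1887, 2095 and 1731 in OE1 and 2519, 2062 and 1603 in OE2, and again each line overlapped WT. In every 2018 group the batch 3 library held the smallest share of reads from ribosomal protein genes. The median change ran from -0.32 without WT replicate 3 to 0.09 without WT replicate 2 in dne1, and from -0.24 to 0.18 without the same libraries for both overexpressors.

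**Figure D1:**
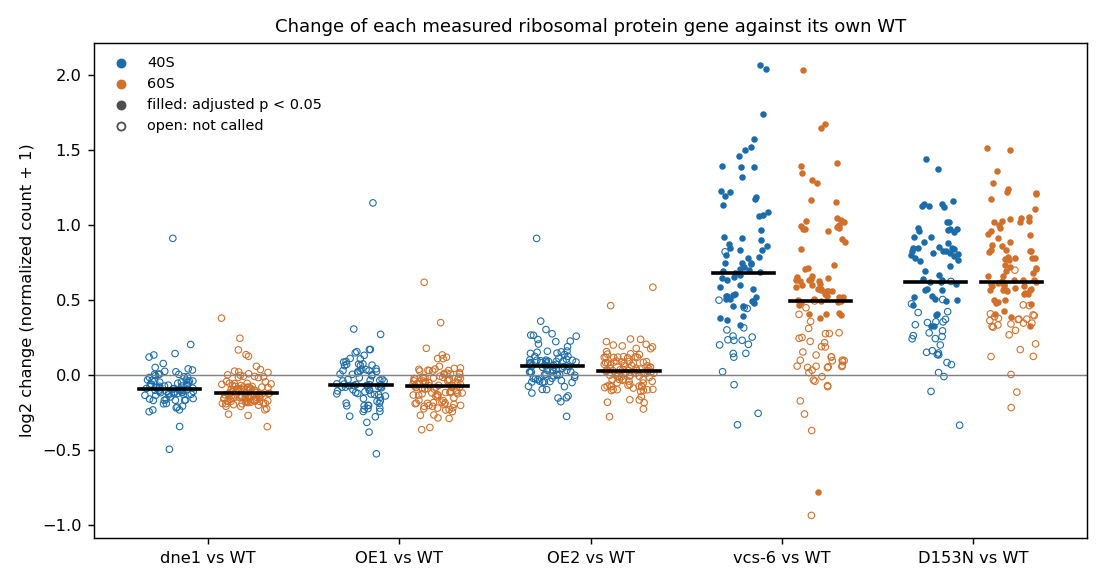
Log2 change against its own WT (vertical axis) of each tested 40S (blue) and 60S (orange) gene in 5 comparisons (horizontal axis), with filled points called at an adjusted p under 0.05 and bars at the medians. Medians lie between -0.12 and 0.06 in the 3 comparisons of 2018 and between 0.50 and 0.68 in the 2 of 2019, where most points are filled.

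In both 2019 comparisons ribosomal protein transcripts took a larger part of the library than in WT. The 197 genes without a mitochondrial description gave 1.76%, 2.18% and 2.28% of all reads in WT of batches 4 to 6 and 3.65%, 3.53% and 3.55% in vcs-6. The groups did not overlap, and the mean ratio was 1.72 (exact permutation test, two-sided, p = 0.1, the smallest that 3 against 3 can give). In batches 7 to 9 the share was 2.15%, 1.97% and 2.17% in WT and 3.19%, 4.01% and 3.43% in D153N. These did not overlap either, D153N was higher in 3 of 3 batches, and the ratio was 1.69 (exact permutation p = 0.1, again the smallest possible).

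In 2018 the share was 3.56%, 4.69% and 2.42% in WT, 3.58%, 3.98% and 2.68% in dne1, 3.30%, 3.70% and 2.75% in OE1 and 3.73%, 3.88% and 2.87% in OE2. The 4 groups overlapped (exact permutation p = 1 for dne1 and p = 0.762 for both overexpressors, for which the smallest possible is 0.0119). The 2018 WT mean of 3.56% ± 1.13 was close to that of vcs-6 (3.58% ± 0.0649) and D153N (3.54% ± 0.422) and above every library of both 2019 WT groups (1.76% to 2.28%). Year, batch and growth cannot be told apart in that difference between WT groups. In bulk seedlings a change in the share of a cell type and a change in RNA per cell cannot be told apart either.

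**Figure D2:**
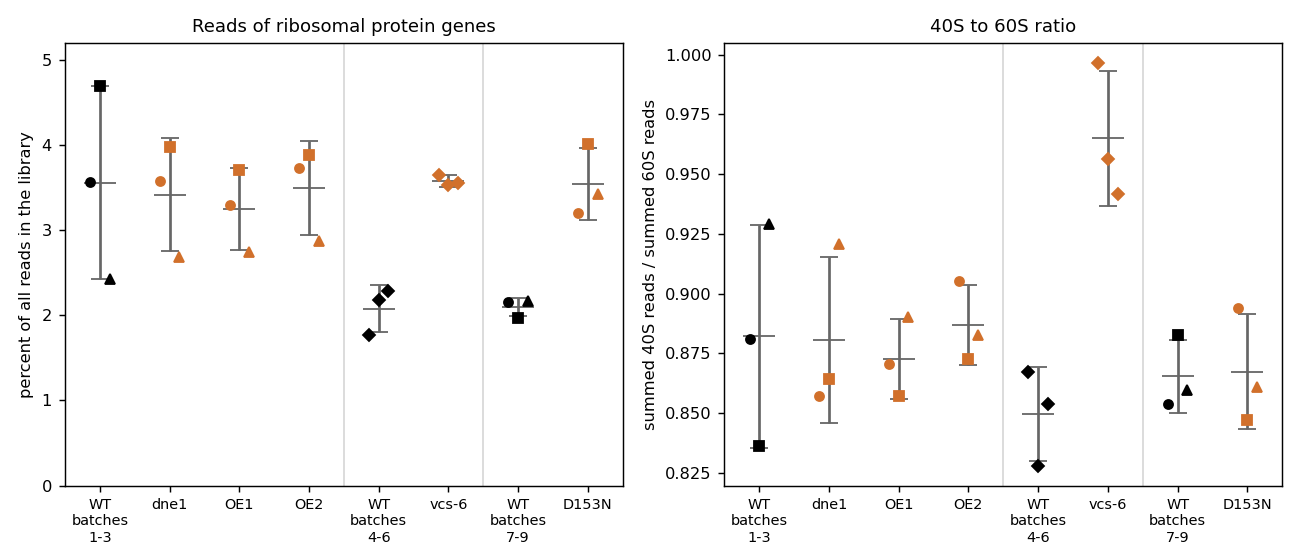
Percent of all reads from 197 ribosomal protein genes (left) and the ratio of summed 40S to summed 60S reads (right, axis not from 0) in each library, by group, with the mean and SD as a horizontal mark and bar and WT in black. Circles, squares and triangles are the lowest, middle and highest batch number of a set, diamonds are libraries of batches 4 to 6. The vcs-6 and D153N shares lie above all libraries of their own WT, and only vcs-6 stands apart from its WT in the ratio.

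In vcs-6, 126 of the 191 ribosomal protein genes rose and 2 fell, where 51.5% of all 21351 genes were called (26.7% higher, 24.8% lower). The median change was 0.54, a fold of 1.45, against 0.00 over all genes, and 175 of 191 changes were above 0. Single genes ranged from -0.93 to 2.07. Other measures moved with these changes. The share of reads from 256 photosynthesis and organelle genes was 6.42% to 7.59% in vcs-6 and 17.4% to 20.7% in its WT, and with these genes taken out of the total the vcs-6 share of ribosomal protein reads still lay above WT (difference 1.28 percentage points, exact permutation p = 0.1). All 8 photosynthetic leaf markers fell (summed level 856574 to 1138550 in vcs-6, 2252950 to 2805890 in WT). Of 10 markers of dividing cells 4 rose and 1 fell (summed level 7998 to 10429, against 5049 to 6061), and of 6 seed and embryo markers 5 rose (1429 to 6583, against 579 to 1089). Of 8 root markers 1 rose and 2 fell (6830.0 to 8743, against 7132 to 10843), and no marker was at 0. The part of the markers in the result was not tested.

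Ribosomal protein transcripts are short, with a median of 907.5 bases against 1335 over all genes. With each library's trend on transcript length and GC content removed, 61 rose and 19 fell in vcs-6, where 49.3% of all genes were called (24.1% higher, 25.2% lower), and the median change was 0.16.

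Among 40S genes 65 of 85 rose in vcs-6 and 0 fell, with a median of 0.68. S16-2 (AT3G04230), one of 3 genes for a protein near the decoding site, had the largest change. Its counts were 576, 567 and 742 in WT and 2818, 2451 and 2583 in vcs-6, and the change was 2.07 ± 0.13 (adjusted p = 3.3e-05). Every vcs-6 library exceeded every WT library by over 3-fold. S19-1 (AT3G02080), a protein of the 40S head needed to mature the small-subunit RNA in yeast and human cells, stood at 4882, 5473 and 6057 in WT and at 17927, 13496 and 15109.5 in vcs-6, a change of 1.50 ± 0.14 (adjusted p = 0.00013). S28-1 stood at 491, 574 and 637 in WT and at 1839, 1517 and 1519.9 in vcs-6, a change of 1.52 ± 0.14 (adjusted p = 0.00011). RPS5A, known from Arabidopsis embryo mutants and as a gene of dividing cells, stood at 15813, 15382 and 17641 in WT and at 44978, 40619 and 41835 in vcs-6, a change of 1.38 ± 0.12 (adjusted p = 9.9e-05). For none of the 3 did the groups overlap. The other 4 of the 8 largest 40S changes among genes with a mean of at least 100 normalized counts, S27 (AT3G61110), S9-2 (AT5G39850), S21 (AT5G27700) and S21-1 (AT3G53890), lay between 1.39 and 1.57.

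Among 60S genes 61 of 103 rose in vcs-6 and 1 fell, with a median of 0.50. L31-1 (AT2G19740), which lies beside the peptide tunnel exit, stood at 1944, 2169.5 and 2573 in WT and at 9381, 7411 and 10750.1 in vcs-6, a change of 2.03 ± 0.17 (adjusted p = 7.9e-05). L13 (AT5G23900) stood at 7679, 8853 and 9588 in WT and at 28468, 26810.5 and 27598 in vcs-6, a change of 1.67 ± 0.12 (adjusted p = 5e-05). L12-1 (AT2G37190), at the base of the stalk that binds translation factors, stood at 2659, 3081 and 3758 in WT and at 7619, 8258 and 9266 in vcs-6, a change of 1.41 ± 0.15 (adjusted p = 0.00021). In all 3 the vcs-6 libraries lay above every WT library. L3-2 (AT1G61580), a paralog of the protein beside the peptidyl transferase centre, rose by 1.65 ± 0.12 (adjusted p = 4.9e-05) and has an overlapping antisense neighbour. L34-2 (AT1G69620), L27a-2 (AT1G23290), the ubiquitin fusion L40-1 (AT3G52590) and L10-2 (AT1G26910) rose by 1.28 to 1.39, of which 98.2% of the words of L27a-2 occur elsewhere, and L27a-2 and L40-1 have an antisense neighbour.

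The one 60S gene that fell in vcs-6 was L35a-1 (AT1G07070). It stood at 295, 334 and 410.2 in WT and at 197, 190.0 and 214 in vcs-6, without overlap, and the change was -0.78 ± 0.16 (adjusted p = 0.005). The other member called lower was AT2G28815, described as a mitochondrial L16-like protein, with 46.9, 71.2 and 64.6 in WT and 24.2, 39.4 and 32.1 in vcs-6 and a change of -0.92 ± 0.28 (adjusted p = 0.027). The other 2 genes with a mitochondrial description, AT3G22300 and AT5G47320, were not called in vcs-6 (-0.03 and -0.04) or in D153N (0.15 and 0.31).

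In D153N, 133 of the 191 genes rose and 0 fell, where 15.9% of all 21124 genes were called (9.09% higher, 6.84% lower). The median change was 0.62, a fold of 1.54, against 0.00 over all genes, 185 of 191 changes were above 0, and the range was -0.34 to 1.51. Photosynthesis and organelle genes took 12.7% to 15.6% of reads in D153N and 16.6% to 19.7% in WT, and with them out of the total the difference in ribosomal protein share was 1.58 percentage points (exact permutation p = 0.1). Of the 8 photosynthetic markers 3 fell (summed level 1668830 to 2018730 in D153N, 2083310 to 2613920 in WT). Of the 10 markers of dividing cells 6 rose and 0 fell (6624 to 8787, against 4601 to 4716). Of 3 seed and embryo markers tested 2 fell (summed level of all 6 was 17.1 to 183 in D153N, 564 to 659 in WT), and of 8 root markers 1 fell (10355 to 10840.2, against 7152 to 12036). The part of these markers in the result was not tested. With the trend on length and GC content removed, 70 rose and 0 fell, where 7.01% of all genes were called (4.34% higher, 2.67% lower), and the median was 0.36. With the batch fitted as a block as well 40 rose, against 2.36% of all genes. Without WT replicate 8 the count was 88, and without WT replicate 9 it was 81.

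Among 40S genes 57 of 85 rose in D153N, with a median of 0.62. S28-1 stood at 575, 576 and 594 in WT and at 1521, 1698 and 1529 in D153N, a change of 1.44 ± 0.08 (adjusted p = 0.0011). S27 (AT3G61110), a zinc-binding protein, stood at 5338, 5068 and 4994 in WT and at 11790.5, 11984 and 10626 in D153N, a change of 1.16 ± 0.09 (adjusted p = 0.0015). S6-1 (AT4G31700), one of the pair of genes for the protein that S6 kinase phosphorylates, stood at 7639.8, 7343 and 7615 in WT and at 13608, 17147 and 15304 in D153N, a change of 1.02 ± 0.10 (adjusted p = 0.0035). In each of the 3 all D153N libraries lay above all WT libraries. The remaining 5 of the 8 largest changes at a mean of at least 100, S21, S21-1, S29 (AT3G43980), S24-2 (AT5G28060) and S27-3 (AT5G47930), lay between 1.02 and 1.14.

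Among 60S genes 76 of 103 rose in D153N and 0 fell, with a median of 0.62. L41, a very short basic peptide at the interface of the subunits, accounted for 4 of the 8 largest changes. AT3G11120 (L41) stood at 2467, 2392 and 2392 in WT and at 6026, 7528 and 7239 in D153N, a change of 1.51 ± 0.10 (adjusted p = 0.0014). AT3G08520 (L41) stood at 919.5, 828 and 813 in WT and at 2014, 2907 and 2413 in D153N, a change of 1.50 ± 0.14 (adjusted p = 0.0027), and shares 22.7% of its words with other transcripts. AT1G56045 and AT2G40205, both L41, rose by 1.28 and 1.22, and AT2G40205 shares 58.0% of its words and has an antisense neighbour. In neither of the first pair did WT and D153N overlap. L34-2 stood at 5569, 5016 and 5659 in WT and at 13171, 14815 and 13773 in D153N, a change of 1.36 ± 0.09 (adjusted p = 0.0014), also without overlap. L31-1, L13 and L12-1 rose by 1.24, 1.21 and 1.21.

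The subunits were then set against each other within a library, which does not depend on the size factors. In vcs-6 the ratio of summed 40S to summed 60S reads was 0.997, 0.956 and 0.942, against 0.867, 0.828 and 0.854 in WT, and the groups did not overlap (exact permutation p = 0.1, the smallest possible). The 40S share of all reads was 1.76% ± 0.0567 against 0.953% ± 0.120 in WT, and the 60S share 1.82% ± 0.0150 against 1.12% ± 0.156. The difference of the median log2 levels of the subunits did not show this shift, at -0.03 between vcs-6 and WT. In D153N the ratio was 0.894, 0.847 and 0.861, within the reach of its WT at 0.854, 0.882 and 0.860 (exact permutation p = 0.9). In dne1 the mean ratio was 0.881 ± 0.0348 against 0.882 ± 0.0466 in WT (exact permutation p = 1), and in both overexpressors together it was 0.880 ± 0.0168 (exact permutation p = 0.917).

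Members known from Arabidopsis mutants did not move as one group. Of the 40S genes, S18 (AT1G22780), the POINTED FIRST LEAF gene, stood at 2619.7, 2853 and 3175 in WT and 4628, 4683 and 5157 in vcs-6, a change of 0.75 ± 0.11 (adjusted p = 0.001), and in D153N it was not called, at 0.42 ± 0.12 (adjusted p = 0.052). S13-2 (AT4G00100), the POINTED FIRST LEAF 2 gene, which overlaps a gene on the same strand, rose by 0.46 ± 0.15 (adjusted p = 0.031) in vcs-6 and was not called in D153N, at 0.26 ± 0.08 (adjusted p = 0.069). S6 (AT5G10360) rose in both lines, by 0.92 ± 0.11 (adjusted p = 0.00038) and 0.73 ± 0.08 (adjusted p = 0.0045). SA (AT1G72370), a 40S protein with a laminin-receptor-like sequence, rose by 0.51 ± 0.14 (adjusted p = 0.017) in vcs-6 and changed by -0.01 ± 0.10 (adjusted p = 0.96) in D153N, and its much less abundant paralog AT3G04770 was called in neither (-0.33 and -0.11). AT1G72370 has an antisense neighbour, and AT3G04770 overlaps a gene on its own strand. With the length and GC trend removed, S18, S13-2 and SA were no longer called in vcs-6. S13-2 was also lost without any one library but WT replicate 6, with changes from 0.35 to 0.49, and SA without WT replicate 4 or 5 or the last vcs-6 library, with 0.43, 0.45 and 0.46.

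Of the 60S genes, L24-2 (AT3G53020), or SHORT VALVE1, which is needed for reinitiation after upstream open reading frames, rose by 0.40 ± 0.12 (adjusted p = 0.025) in vcs-6 and by 0.78 ± 0.10 (adjusted p = 0.006) in D153N. Its paralog L24-1 (AT2G36620) was called in neither, with -0.37 ± 0.15 (adjusted p = 0.073) and 0.36 ± 0.11 (adjusted p = 0.062), and has an overlapping antisense neighbour. L10a-2 (AT2G27530), PIGGYBACK1 in leaf patterning, rose in both (0.52 and 0.60). L9-1 (AT1G33140), PIGGYBACK2, was called in neither (0.28 and 0.00), and 59.9% of its words occur elsewhere and it has an antisense neighbour. L4-1 (AT3G09630), which lines the peptide tunnel, rose by 0.99 and 0.60, and L4-2 (AT5G02870) was called in neither (0.41 and 0.27). L23a-1, among the most abundant 60S genes per kilobase, stood at 22189, 27947 and 27756 in WT and 25993, 24491 and 26505 in vcs-6, which overlapped, at -0.01 ± 0.14 (adjusted p = 0.96), and rose in D153N by 0.50 ± 0.10 (adjusted p = 0.025). All 3 L10 genes, with AT1G14320 the SAC52 gene, rose in both lines, L3-1 (AT1G43170) and L28-1 (AT2G19730) did too, and L27a-3 (AT1G70600) was called in neither (0.12 and 0.37). With the length and GC trend removed L24-2 stood at -0.01 in vcs-6, L10-1 (AT1G14320), L10a-2 and L28-1 were no longer called in vcs-6, and L10a-2, L28-1 and L23a-1 were no longer called in D153N. The call of L24-2 in vcs-6 was lost without WT replicate 4 or the first or last vcs-6 library (0.32, 0.39 and 0.33). In D153N that of L23a-1 was lost without any one library but D153N replicate 13 (0.43 to 0.52) and with the batch as a block, that of L10-1 without WT replicate 8 or 9 (0.55 and 0.58), and that of L4-1 without WT replicate 9 (0.60).

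Estimated changes often differed between paralogs of one protein. Among 67 families with at least 2 genes at a mean of 100 or more in the compared libraries, the largest minus the smallest log2 change within a family had a median of 0.48 in vcs-6, with 12 families over 1, and of 0.34 in D153N, with 2 families over 1. In vcs-6 all measured genes rose in 25 families, no gene was called in 2 and calls were mixed in 40, with some genes called higher and others not. In D153N these numbers were 28, 3 and 36. Mixed calls do not show that paralogs differ, as a gene may miss the threshold narrowly. No difference between paralogs was tested, and the spread among unrelated genes is not set beside these values. The widest family in vcs-6 was S27, where AT3G61110 rose by 1.57 and AT5G47940 changed by -0.25 and was not called. AT5G47940 has a transcript of 2599 bases and is placed in S27 by its description alone, so it may not encode the same protein. It stood at 765, 767 and 718 in WT and 618, 753 and 534 in vcs-6, which overlapped. Without AT5G47940 the lowest S27 change in vcs-6 was 0.23, in S27-1 (AT2G45710), which was not called. S27 was the widest family in D153N as well, where AT3G61110 rose by 1.16 and AT5G47940 changed by -0.33 and was not called. Without AT5G47940 the lowest S27 change in D153N at a mean of at least 100 was 0.69, in S27-1. S27 is thus among the families over 1 in D153N only with AT5G47940 included. The next in vcs-6 were L34 (L34-2 against L34-3), L31 (L31-1 against L31-3), S19 (S19-1 against S19-3), L13 (AT5G23900 against L13-1), L35a (L35a-3 against L35a-1), S16 (S16-2 against S16-1) and L12 (L12-1 against L12-3), with differences from 1.57 down to 1.26.

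The share of a family's reads that one gene holds shows this without any scaling of libraries. A family here holds only genes among the 200, so the reads of a paralog described in other words are not counted. S19-1 held 52.4% to 54.4% of S19 reads in WT of batches 4 to 6 and 72.8% to 78.8% in vcs-6. In batches 7 to 9 it held 54.5% to 59.9% in WT and 65.1% to 70.8% in D153N. S19-3 (AT5G61170), the other abundant S19 gene, stood at 3995, 4450.1 and 5313 in WT and 4545, 4790.3 and 4555 in vcs-6, and these overlapped.

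L13 (AT5G23900) held 37.3% to 40.8% of its family in WT and 61.5% to 66.2% in vcs-6, and 39.9% to 41.1% in WT and 51.7% to 57.8% in D153N. L12-1 held 50.8% to 55.7% in WT and 70.9% to 75.4% in vcs-6, and 50.8% to 51.5% in WT and 61.3% to 65.1% in D153N. L34-2 held 39.4% to 40.7% in WT and 61.5% to 65.7% in vcs-6, and 39.5% to 41.4% in WT and 53.2% to 58.1% in D153N, though L34-1 and L34-3 share over 20% of their words and have antisense neighbours. In all of these the line and its WT did not overlap, and the same gene held more in both lines.

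L31-1 and S16-2 differed between the lines. L31-1 held 45.8% to 49.1% of L31 reads in WT and 71.5% to 72.8% in vcs-6, but 48.6% to 51.4% and 51.2% to 57.4% in batches 7 to 9, which overlapped. S16-2 held 8.1% to 9.7% of S16 reads in WT and 14.4% to 15.9% in vcs-6, but 9.7% to 10.5% in WT and 7.1% to 9.1% in D153N, which is lower. The other S16 genes, S16-1 (AT2G09990) and S16-3 (AT5G18380), share 23.7% and 21.4% of their words with other transcripts. L35a-1 held 7.4% to 7.7% of L35a reads in WT and 3.3% to 3.9% in vcs-6, and 6.4% to 7.2% in WT and 5.3% to 5.9% in D153N, so that both lines lay below their WT.

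In the 2018 groups S19-1 held 50.4% to 61.4% in WT of batches 1 to 3, and all libraries of dne1, OE1 and OE2 lay within that range. L12-1 held 44.2% to 55.8% in WT, 46.9% to 53.2% in dne1, 51.0% to 54.3% in OE1 and 51.6% to 53.9% in OE2. RPS5A held 71.0% to 76.9% of S5 reads in WT of 2018, 71.6% to 75.2% and 75.2% to 75.7% in the WT groups of 2019, 84.5% to 86.4% in vcs-6 and 81.6% to 83.5% in D153N. All 2018 values of these 3 genes lay below all vcs-6 and D153N values. S16-2 held 5.2% to 7.0% in the 12 libraries of 2018, below the 8.1% to 10.5% of the 2019 WT groups and below all vcs-6 and D153N values. AT5G47940, placed in S27 by its description alone, held 1.6% to 3.4% of S27 reads in 2018. This was below both 2019 WT groups (4.1% to 6.0%) and overlapped vcs-6 (1.7% to 2.8%) and D153N (1.7% to 2.3%). These genes were chosen with their values seen, and no test was made of these shares.

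**Figure D3:**
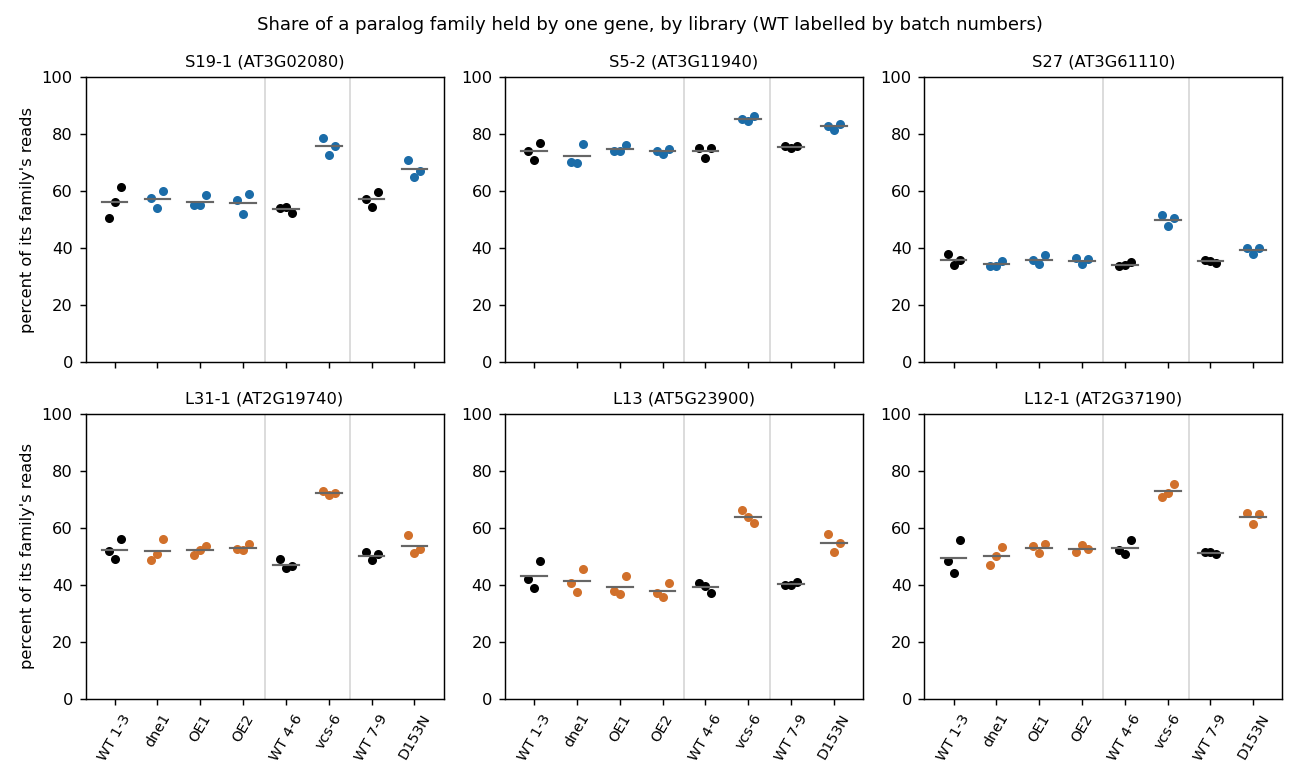
Percent of its family's reads (vertical axis, 0 to 100) held by one gene in each of the 24 libraries, by group (horizontal axis), for 3 genes of 40S (blue) and 3 of 60S (orange) with WT in black and lines at the means. A family holds only genes among the 200 described here. In all 6 panels vcs-6 lies above every other group, while D153N overlaps its WT for L31-1.

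Promoters of paralogs that moved apart are shown because the data bear on how a pair of genes for the same protein differ. They are the 4 families with the largest difference in vcs-6 whose pair shares at most 20% of its words and whose 250 bases before the transcript start hold no annotated exon. Sequences are RefSeq's, build TAIR10.1, written 5′ to 3′ along the gene. Capitals mark the telo box AAACCCTA and the site II elements TGGGCC and TGGGCT, on either strand, so that TAGGGTTT, GGCCCA and AGCCCA are capital too, and neighbouring matches may run together.
The L13 gene that rose (AT5G23900, chr5:8065551-8065800, minus strand) and L13-1 (AT3G49010, chr3:18168701-18168950, minus strand), which was not called, both hold a telo box and site II elements.
L13 AT5G23900: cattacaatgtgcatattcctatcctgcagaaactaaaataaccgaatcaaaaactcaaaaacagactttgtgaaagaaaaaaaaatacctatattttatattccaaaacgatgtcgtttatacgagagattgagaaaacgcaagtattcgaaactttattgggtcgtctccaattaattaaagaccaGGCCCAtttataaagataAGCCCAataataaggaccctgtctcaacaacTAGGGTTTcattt
L13-1 AT3G49010: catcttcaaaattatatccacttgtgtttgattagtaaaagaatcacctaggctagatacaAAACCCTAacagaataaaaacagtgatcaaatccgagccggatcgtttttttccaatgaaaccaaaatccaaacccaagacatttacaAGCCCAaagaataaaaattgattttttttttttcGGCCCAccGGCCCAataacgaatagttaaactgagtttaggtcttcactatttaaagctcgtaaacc
L19-3 (AT4G02230, chr4:980699-980948, minus strand), which rose by 1.17, holds both motifs, and L19-2 (AT3G16780, chr3:5708576-5708825, plus strand), with -0.04 and not called, holds site II elements only.
L19-3 AT4G02230: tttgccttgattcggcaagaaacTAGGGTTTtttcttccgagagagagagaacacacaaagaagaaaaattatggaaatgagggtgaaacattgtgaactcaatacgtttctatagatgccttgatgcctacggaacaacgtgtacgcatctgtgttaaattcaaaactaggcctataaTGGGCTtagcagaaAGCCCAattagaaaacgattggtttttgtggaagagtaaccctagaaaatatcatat
L19-2 AT3G16780: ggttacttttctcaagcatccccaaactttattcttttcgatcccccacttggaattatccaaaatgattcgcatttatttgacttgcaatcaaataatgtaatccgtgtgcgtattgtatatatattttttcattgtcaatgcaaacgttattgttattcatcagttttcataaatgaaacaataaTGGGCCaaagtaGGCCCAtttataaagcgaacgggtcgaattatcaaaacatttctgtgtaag
S18 AT4G09800 (chr4:6173462-6173711, plus strand), which rose by 1.32, holds neither motif, and S18 AT1G34030 (chr1:12371555-12371804, minus strand), with 0.12 and not called, holds a site II element.
S18 AT4G09800: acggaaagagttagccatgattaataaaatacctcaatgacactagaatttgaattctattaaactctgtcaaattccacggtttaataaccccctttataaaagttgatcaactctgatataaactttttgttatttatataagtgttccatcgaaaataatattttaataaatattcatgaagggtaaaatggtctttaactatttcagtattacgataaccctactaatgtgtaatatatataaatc
S18 AT1G34030: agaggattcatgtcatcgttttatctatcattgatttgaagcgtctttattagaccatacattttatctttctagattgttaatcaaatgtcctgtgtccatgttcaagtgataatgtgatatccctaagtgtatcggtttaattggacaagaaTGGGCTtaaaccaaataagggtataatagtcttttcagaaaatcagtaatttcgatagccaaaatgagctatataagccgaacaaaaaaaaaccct
RPS5A (S5-2, AT3G11940, chr3:3779546-3779795, minus strand) holds both motifs, and S5-1 (AT2G37270, chr2:15649472-15649721, minus strand), which rose by 0.33, holds neither. The call of S5-1 was lost without any one library but the last of vcs-6 (0.27 to 0.38).
S5-2 AT3G11940: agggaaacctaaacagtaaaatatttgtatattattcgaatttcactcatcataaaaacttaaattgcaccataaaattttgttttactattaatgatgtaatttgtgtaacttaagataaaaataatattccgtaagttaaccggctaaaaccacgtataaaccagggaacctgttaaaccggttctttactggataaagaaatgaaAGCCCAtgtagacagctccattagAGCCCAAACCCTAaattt
S5-1 AT2G37270: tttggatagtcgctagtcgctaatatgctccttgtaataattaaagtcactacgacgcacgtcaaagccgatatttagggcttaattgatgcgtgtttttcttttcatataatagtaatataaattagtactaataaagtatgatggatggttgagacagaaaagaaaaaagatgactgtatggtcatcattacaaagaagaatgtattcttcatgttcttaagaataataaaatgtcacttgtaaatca
The member that rose more thus held a telo box and a site II element in 3 of these 4 pairs and neither in S18. The member that rose less held a site II element in 3 of these 4 pairs too, and L13-1 held both motifs. Whether the motifs bear on the changes was not tested. L19-3 and S18 AT4G09800 have antisense neighbours.

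Over all 197 promoters of the genes without a mitochondrial description, 21.8% hold a telo box (13 of 90 for 40S, 30 of 107 for 60S), against 4.49% of 27443 promoters of all genes. A site II element is in 66.5% (57 of 90 and 74 of 107), against 19.2% of all promoters, and 27.9% hold neither, against 77.7%. In vcs-6 24 of 38 tested genes with a telo box were called higher, 89 of 127 with a site II element and 31 of 51 with neither, where 126 of all 188 were. In D153N these counts were 25 of 38, 100 of 127 and 28 of 51, where 133 of all 188 were. Of all genes tested 26.7% were called higher in vcs-6 and 9.09% in D153N. The counts were not tested between motifs, and shares for other genes with the same motifs are not given. A match is a description of the letters in this window.

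The vcs-6 and D153N comparisons do not share libraries, so their changes can be set side by side. Across 188 genes the changes had a Pearson correlation of 0.52 and a Spearman correlation of 0.53, which describe these genes, which are not independent replicates. Of them 104 rose in both lines, 22 rose in vcs-6 and were not called in D153N, 29 rose in D153N and were not called in vcs-6, and 1 fell in vcs-6 alone. As 126 of the 188 rose in vcs-6 and 133 in D153N, part of this overlap follows from those counts alone. No overlap or correlation over all genes is set beside these values, so they show nothing particular to the members. The difference of the changes was tested in a fit of all 24 libraries. It was called for 13 members, 8 with the higher log2 change in vcs-6 and 5 with the higher in D153N, where 26.3% of all 22214 genes were called (13.3% with the higher change in vcs-6). The median difference was -0.02 over all members, 0.12 for 40S and -0.16 for 60S. With library size as the only scaling 7 were called, 4 and 3, against 23.6% of all genes. That scaling moved the median change of all genes by 0.12 in vcs-6 and 0.09 in D153N.

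The 8 genes with the higher change in vcs-6 were 4 of each subunit. S16-2 differed by 1.40 ± 0.21 (adjusted p = 6.4e-05), having stood at 776, 719 and 749 in WT and 1182, 1329 and 1074 in D153N. L31-1 differed by 0.79 ± 0.22 (adjusted p = 0.012). S9-2, near the mRNA entry of the 40S subunit, differed by 0.83 ± 0.29 (adjusted p = 0.038), with 272, 388 and 422 in WT and 870.0, 1061 and 1008 in vcs-6, and was not called in D153N. AT3G61111 (S27) differed by 1.91 ± 0.55 (adjusted p = 0.015) at low counts, with 7.82, 17.3 and 14.1 in WT and 71.5, 51.5 and 43.8 in vcs-6. The other 4 were S19-1, L13, L10a-1 (AT1G08360) and L27a-2.

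The 5 with the higher signed change in D153N were all of the 60S subunit. L37a-2 (AT3G60245), a zinc-binding protein, had the largest difference of the 5, at -1.24 ± 0.30 (adjusted p = 0.0043). It stood at 1165, 1029 and 1306 in WT and 2003, 2741 and 2201 in D153N, and at 1108, 1319 and 1254 in WT and 1136, 875 and 1076 in vcs-6. The groups did not overlap in D153N and did in vcs-6. The L41 genes AT3G08520 and AT3G11120 differed by -1.02 and -0.93, L35a-1, which fell in vcs-6 and was not called in D153N, by -0.99, and L34-3 (AT3G28900), which shares 28.9% of its words and has an antisense neighbour, by -0.79. Changes in D153N were larger in genes with shorter transcripts (Pearson correlation of -0.36 with log2 length over 188 genes) and with lower GC content (-0.35). In vcs-6 these correlations were -0.07 and 0.03, and their difference between the lines was not tested. With the trend on length and GC content removed, 16 members differed, against 27.1% of all genes. Of the 13, 11 were still called in the same direction, all but L13 (0.31) and S19-1 (0.45).

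**Figure D4:**
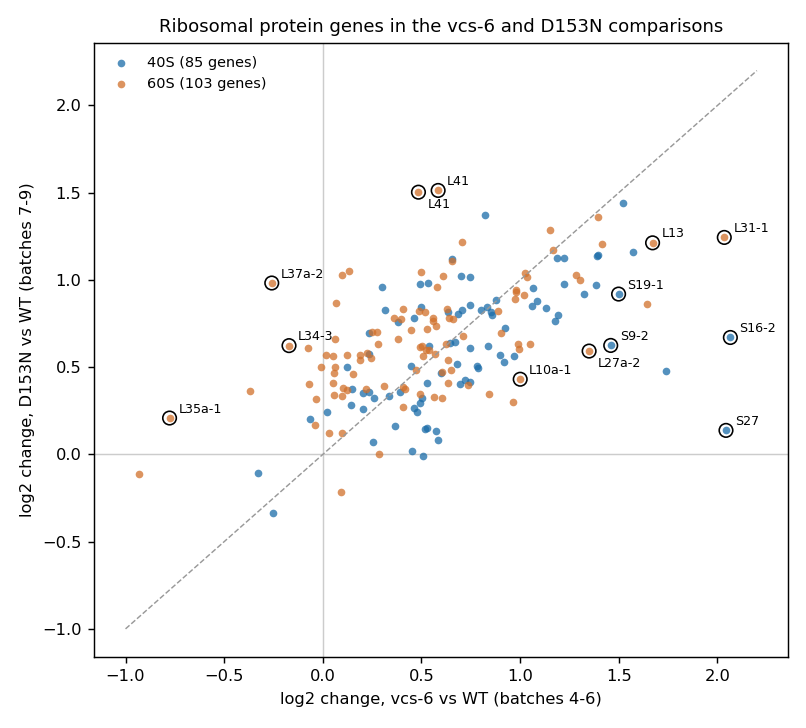
Log2 change in vcs-6 (horizontal axis) and in D153N (vertical axis), each against its own WT, for 85 genes of 40S (blue) and 103 of 60S (orange), with equal changes on the dashed line. Rings mark the 13 genes whose changes differed at an adjusted p under 0.05, 8 below the line and 5 above it.

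D153N and vcs-6 were also set against overexpression of unaltered DNE1. The D153N change exceeded that of both overexpressors in 49 of 191 members and was lower in 0, where 2.15% of all genes differed (1.84% higher), with a median difference of 0.63. These were 22 of 40S and 27 of 60S. The count depended on the 2018 libraries. It was 103 without WT replicate 3, 27 without WT replicate 2, 31 without OE1 replicate 1, 32 without OE2 replicate 2 and 100 with batches 1 and 2 alone. It was 30, 27 and 30 without WT replicates 7, 8 and 9, 25 without D153N replicate 14 and 31 without D153N replicate 15. With the batch as a block it was 80, against 3.47% of all genes called higher. The vcs-6 change exceeded that of the overexpressors in 84 members, 46 of 40S and 38 of 60S, and was lower in 1, AT2G28815, where 35.5% of all genes differed (18.4% higher), with a median difference of 0.57. Leaving out single libraries gave 60 to 127 calls in either direction, the fewest without WT replicate 2 and the most without WT replicate 3. With the trend on length and GC content removed 53 were higher and 2 lower, where 17.7% of all genes were higher.

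The neighbouring genes of the translation machinery, which the descriptions keep out of the 200, did not all move alike. Of 12 tested genes for the proteins of the P-stalk, which recruits elongation factors to the 60S subunit, 10 rose in vcs-6 (median 0.76) and 7 in D153N (median 0.57), and 0 fell, where 26.7% and 9.09% of all genes rose. P0-1 (AT2G40010), which shares 45.4% of its words, rose by 1.91 ± 0.15 (adjusted p = 7.3e-05) and 1.65 ± 0.11 (adjusted p = 0.0014). Of 15 genes for elongation factors, RACK1 and TCTP 10 rose in vcs-6 (median 0.65) and 8 in D153N (median 0.33), and 0 fell, against the same shares of all genes. RACK1A (AT1G18080), a scaffold on the 40S head, went from 10014 ± 981 to 15673 ± 1006 in vcs-6 (adjusted p = 0.0029), and in D153N from 9409 ± 295 to 11240.4 ± 671, which was not called (adjusted p = 0.084).

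The factors that assemble ribosomes and the regulators of growth are set beside all genes, of which 51.5% were called in vcs-6 and 15.9% in D153N. Of 29 ribosome biogenesis genes 6 rose and 3 fell in vcs-6 (median 0.03), and 2 rose and 2 fell in D153N (median 0.08). Nucleolin NUC-L2 (AT3G18610), which acts on ribosomal RNA genes, went from 41.0 ± 7.21 to 302 ± 2.25 in vcs-6 (change 2.86 ± 0.19, adjusted p = 3.3e-05), while the more abundant NUC-L1 (AT1G48920), at 9239 ± 1132 and 7994 ± 752, was not called (adjusted p = 0.23). Of 10 genes of the TOR pathway and other regulators 3 rose and 3 fell in vcs-6 (median 0.11), and 1 rose and 2 fell in D153N (median 0.07). No test compared these lists with all genes. The S6 kinase gene AT3G08730 rose in both, from 1645 ± 254 to 3772 ± 461 in vcs-6 (adjusted p = 0.00048) and from 1373 ± 275 to 2795 ± 452 in D153N (adjusted p = 0.013). TOR (AT1G50030) fell in both, by 0.59 ± 0.21 in vcs-6 (adjusted p = 0.049) and by 0.56 ± 0.12 in D153N (adjusted p = 0.026). None of the genes of these 4 lists was called in dne1, OE1 or OE2, where 0.0185%, 0.139% and 0.171% of all genes were called. At such shares the lack of calls shows nothing particular to the lists.

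By the adjusted p-values deposited by the authors, 136 of 196 members were higher and 3 lower in vcs-6 and 150 of 191 higher and 0 lower in D153N in the authors' deposited table, with the same threshold, where 26.8% and 11.3% of all genes in it were higher. The authors' deposited table called 0 of 189 members in dne1 and 1 of 192, higher, in both overexpressors, where 0.0490% and 4.01% of all genes were higher.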

How the data were processed

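Per the labels' protocols TRIZOL was used for extraction and a Lexogen SENSE kit for library preparation. The submitters' processing notes name HTSeq, HISAT2 2.1.0, bcl2fastq 2.17.1.14 and DESeq2 besides build TAIR10. Settings and strandedness of counting are not given in the sources used here. Each deposited signal is a normalized count per gene and library, made by the authors with DESeq2 1.24.0 per the file header, with size factors set per year. Every value was a whole multiple of one step per library (tolerance 1e-06, 100% of values), so whole reads were recovered for shares and for count tests. The log2 fold changes and p-values deposited by the authors were only counted.

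The members and gene lists were chosen with earlier results of these data known. The fit was limma 3.58.1 with an intensity trend, in R 4.3.3, of log2(normalized count + 1), batches 1 to 3 together, each 2019 line with its own WT, and differences of changes in all 24 libraries. Alternatives were edgeR 4.0.16 and DESeq2 1.42.0 on recovered reads, other scalings, filters and pseudocounts, the batch as a block, the length and GC trend removed, and each library left out. The procedure was tested on simulated independent counts of fixed dispersion, with no batch, length or GC effect, so that test does not cover such effects in these data. Named genes were up to 8 called members per subunit and direction with the largest change and a mean of at least 100, members known from mutants or signalling, the families whose paralogs differed most, and the extremes per kilobase; the text prints a part of these, and L10a-1, L37a-2 and AT2G28815 were named after their values were seen. Batch numbers come from the labels. Deviations from group means correlated at 0.137 to 0.682 within a batch (18 pairs) and -0.577 to 0.219 between batches (36 pairs) in batches 1 to 3. In batches 7 to 9 the 3 pairs within a batch gave 0.0713 to 0.229, and the 6 between batches gave -0.328 to 0.169. Arabidopsis identifiers of all 200 members matched the reference annotation.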

Additional observations from a re-analysis of the deposited data

Results flagged for a closer look

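The change of 13 members differed between vcs-6 and D153N in a test of the difference itself, that of 49 between D153N and the mean of both DNE1 overexpressors, and that of 85 between vcs-6 and the same mean. The same tests called 26.3%, 2.15% and 35.5% of all 22214 genes, in that order, of which 191 were members. The 13, as the vcs-6 change minus the D153N change in log2, were L37a-2 (AT3G60245) at -1.24, the L41 genes AT3G08520 at -1.02 and AT3G11120 at -0.93, L35a-1 (AT1G07070) at -0.99, L34-3 (AT3G28900) at -0.79, L13 (AT5G23900) at 0.46, L10a-1 (AT1G08360) at 0.57, S19-1 (AT3G02080) at 0.58, L27a-2 (AT1G23290) at 0.76, L31-1 (AT2G19740) at 0.79, S9-2 (AT5G39850) at 0.83, S16-2 (AT3G04230) at 1.40 and S27 (AT3G61111) at 1.91. Groups held 3 libraries each, too few to test single libraries as outliers.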

How the results depend on the processing

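The rise of ribosomal protein genes in vcs-6 and D153N kept its direction, as a median over members, under every alternative run. Taking out length and GC trends lowered the calls, to 80 in vcs-6 (61 higher, 19 lower), 70 in D153N, 24 in D153N against the overexpressors and 55 in vcs-6 against the overexpressors (53 higher, 2 lower). The shares of all genes called were then 49.3%, 7.01%, 1.3% and 33.8%, in that order. Taking out these trends also moved L24-2 (AT3G53020) in vcs-6 to -0.0132. The batch pairs the libraries of batches 1 to 3 and 7 to 9, and with it as a block D153N had 110 calls, 40 with the trend removed as well, and D153N against the overexpressors 80; both overexpressors against WT had 1 call with block and trend removal together, and 0 with the block alone. No paired analysis was possible for vcs-6 because its columns name no batch. DESeq2 gave 75 calls, against 4.43% of all genes, and batches 1 and 2 alone 100 for D153N against the overexpressors. Library size as the only scaling gave 7 for vcs-6 against D153N, against 23.6% of all genes. Shares of all genes with batches 1 and 2 alone, or with single libraries left out, are not given here. Those counts therefore cannot be set against overall calling. Leaving out each library gave 105 to 125 calls in vcs-6, 81 to 146 in D153N, 9 to 16 for vcs-6 against D153N, 25 to 103 for D153N against the overexpressors and 60 to 127 for vcs-6 against the overexpressors, and 0 in each comparison of 2018.

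The ratio of 40S to 60S reads differed from WT by 0.0996 to 0.127 in vcs-6 without any one library. Near 0 its sign was not stable. The difference turned over in dne1 without members that share words (0.00404), with batches 1 and 2 alone (0.00211) and without single libraries (-0.0244 to 0.0221). It did so in the overexpressors by median log2 levels (0.00326), with batches 1 and 2 alone (0.0178) and without single libraries (-0.0253 to 0.0212), and in D153N by median levels (-0.10), without members that share words (-0.0129) and without single libraries (-0.0113 to 0.0121). In vcs-6 median levels gave -0.0270. The share of reads turned over without single libraries in dne1 (-0.713 to 0.419 percentage points) and the overexpressors (-0.754 to 0.378), and not in vcs-6 (1.34 to 1.60) or D153N (1.21 to 1.62). Of 70 changes of named members 48 kept direction and call under all alternatives, 17 lost the call with length and GC trends removed and 1 turned over. The cause of these shifts was not tested. With 3 libraries a group, an exact test cannot go below 0.1.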
